A study of Mus musculus with 6 samples.

Results

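In pre-B cells of the Eμ-Myc mouse, 8 genes met a 2-part rule: at least 4 counts-per-million (CPM) in all 4 wild type and premalignant libraries, and below 1 CPM in both malignant libraries. CPM was a gene's read count relative to the library's total count over genes. The rule was applied to autosomal protein-coding genes of GENCODE vM1, of which 8851 reached 4 CPM in the 4 earlier libraries. The 8 genes were Gpc2, Pcbp3, Zfp677, Cand2, Plag1, 9030625A04Rik, Zfp286 and Dsel. The 8 were chosen by their CPM in all 6 libraries, so the fall between the premalignant and malignant stages is described below with no test. The working name of the list was genes silenced in malignant cells only, and the values of the second malignant library went against it, so the genes are called here by their rule.

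The Eμ-Myc transgene places Myc under an immunoglobulin heavy chain enhancer, so that B-lineage cells carry excess MYC, a transcription factor that binds widely at promoters, long before lymphomas arise. Pre-B cells are bone marrow precursors that have rearranged the heavy chain and not yet placed a complete antibody on their surface. Mammalian genes can lose expression through loss of activating factors, Polycomb-marked chromatin or promoter DNA methylation, and none of these was measured in the values used here.

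RNA was taken from sorted B220-high, IgM-low, IgD-low cells of C57BL/6 bone marrow. The 2 wild type libraries came from littermates without the transgene and the 2 premalignant libraries from Eμ-Myc/+ animals, in both cases females aged 4 to 6 weeks. The 2 malignant libraries came from Eμ-Myc/+ animals of either sex aged 10 to 20 weeks that had developed lymphoma, so that stage, age and sex cannot be told apart in any comparison with them. The study's methods name the sorted wild type and premalignant cells as progenitor (pro-B) and precursor (pre-B) cells. They describe the malignant cells as IgM- and IgD-negative transformed pre-B cells, whereas the labels give the same sort for all stages. There were 2 libraries of polyadenylated RNA per stage, and the study counted separate animals as its biological replicates.

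Library totals ran from 30031100 to 53453055 counts, and in each stage replicate 1 was the deeper library. The transgene's product followed the labels, with Myc at 37.7 and 46.7 CPM in wild type, 1143 and 1110 in premalignant, and 1562 and 1466 in malignant cells. The B-lineage gene Pax5 was present in all 6 libraries, at 117 CPM or more. The summed CPM of 15 B-lineage precursor markers was 9603 and 10519 in wild type, 3909 and 3765 in premalignant, and 3270 and 3103 in malignant cells, and 14 of the 15 were called lower between wild type and premalignant cells. The part of this shift in the premalignant values below was not tested. Wild type replicate 2 stood apart in 18 immediate-early and AP-1 genes, whose summed CPM was 690 in replicate 1 and 5597 in replicate 2, against 362 and 474 in premalignant cells. Markers of other cell types and stages were compared as summed CPM in 12 lists, among them mature B cells and plasma cells of the B lineage. These sums were below wild type at the premalignant stage in 11 of 12 lists. In 10 of 12 they were higher in malignant replicate 2 than in replicate 1. Single genes could carry a sum, as Cd2 did with 180 of 184 CPM in the T cell list of malignant replicate 1. Such counts of lists are thus no measure of other cells in the samples. In a bulk sample, fewer cells of a type and less RNA per cell cannot be told apart.

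By function, the 8 genes did not share a pathway. Gpc2 encodes a glypican, a proteoglycan that is held to the cell surface by a lipid anchor and carries heparan sulfate chains. Dsel encodes a relative of dermatan sulfate epimerase. Zfp677, Zfp286 and Plag1 encode zinc finger proteins, and PLAG1 is a transcription factor known from chromosome rearrangements in salivary gland adenomas. Pcbp3 encodes an RNA-binding protein of the poly(C)-binding family. Cand2 encodes a cullin-associated protein related to the regulators that exchange substrate receptors on ubiquitin ligases. The gene listed as 9030625A04Rik is named Lacc1 in RefSeq, and its product is a laccase-domain enzyme known from macrophages. None of the 8 was among the 347 genes found from 20 lists of cell type markers and B-lineage, signalling, adhesion and tumour suppressor genes.

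RefSeq promoter windows on the GRCm38.p6 build, which is not the build of the counts, were found for 4 of the 8 genes. The 200 bases before the start of Gpc2, Dsel and Zfp677 are shown to compare their CpG content, with CpG dinucleotides in capitals. Gpc2 and Dsel stand for the CpG-rich promoters of the group. Zfp677, the gene called lower before malignancy in the most fits, had the promoter that did not reach the CpG-rich threshold given below.
Gpc2, chr5:138279938-138280137, minus strand: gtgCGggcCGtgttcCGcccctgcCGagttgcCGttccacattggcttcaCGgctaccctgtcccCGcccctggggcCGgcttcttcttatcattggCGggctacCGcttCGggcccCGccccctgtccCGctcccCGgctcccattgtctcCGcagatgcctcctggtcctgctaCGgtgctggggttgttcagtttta
Dsel, chr1:111864919-111865118, minus strand: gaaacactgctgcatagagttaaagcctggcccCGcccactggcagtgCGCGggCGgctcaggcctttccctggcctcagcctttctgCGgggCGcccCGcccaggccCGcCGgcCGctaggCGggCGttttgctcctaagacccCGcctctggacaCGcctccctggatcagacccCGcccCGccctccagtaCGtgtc
Zfp677, chr17:21383548-21383747, plus strand: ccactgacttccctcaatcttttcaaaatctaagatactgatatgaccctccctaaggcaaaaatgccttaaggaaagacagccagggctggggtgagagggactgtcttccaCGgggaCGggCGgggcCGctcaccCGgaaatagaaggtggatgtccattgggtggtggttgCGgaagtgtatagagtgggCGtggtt

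Those 3 stretches held 16, 17 and 7 CpGs. A window of 300 bases was called CpG-rich at a CpG observed-to-expected ratio of 0.6 or more and a GC content of 50% or more, which held for Gpc2, Dsel and Lacc1 and not for Zfp677, whose ratio was 0.528. Of the 9106 promoters of genes at 4 CPM or more in the 4 earlier libraries, 72.7% were CpG-rich, as were 33.5% of all 32851 promoters in the table. Thus 3 of 4 is close to the share among genes expressed at this level. The E-box CACGTG to which MYC binds, the TATA motif TATAAA and the ETS-type motif AGGAAG, searched on both strands, were in none of the 4 windows, against 10.8%, 6.28% and 33.0% of the promoters of the expressed genes. With 4 windows, an absence says only that these letters were not there.

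Gpc2 (ENSMUSG00000029510, chr5:138706180-138721233 on NCBIM37, minus strand) was 1 of the 2 genes that fell to a single read in malignant replicate 1. It measured 18.5 and 27.4 CPM in wild type, 8.08 and 7.15 in premalignant, and 0.0189 and 0.932 in malignant cells, the last 2 values being 1 and 28 reads. The premalignant values were both below the wild type values, and the malignant libraries differed by a larger ratio than any other pair of replicates of this gene.

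Pcbp3 (ENSMUSG00000001120, chr10:76224602-76424632, minus strand) had the same split between the malignant libraries. Its values were 12.3 and 11.96 CPM in wild type, 8.83 and 8.28 in premalignant, and 0.0189 and 0.899 in malignant cells, where 1 and 27 reads were counted. Relative to the premalignant mean of 8.55 CPM, 0.221% remained in malignant replicate 1 and 10.5% in replicate 2. It was the only gene of the 8 that also passed a floor of 8 CPM in place of 4.

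Zfp677 (ENSMUSG00000062743, chr17:21520712-21536229, plus strand) measured 14.8 and 14.4 CPM in wild type, 4.53 and 5.01 in premalignant, and 0.453 and 0.932 in malignant cells. Its premalignant level was 32.6% of wild type, the lowest share of the 8 genes. Most of its fall in CPM therefore came before malignancy, as it did for Gpc2 and Cand2. As a ratio the later step was the larger one. Wild type was 3.06-fold the premalignant mean, which was 10.5-fold and 5.11-fold the malignant values. The malignant libraries thus held 9.50% and 19.6% of the premalignant level.

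Cand2 (ENSMUSG00000030319, chr6:115724556-115754911, plus strand) measured 13.7 and 10.6 CPM in wild type, 5.82 and 5.38 in premalignant, and 0.453 and 0.999 in malignant cells. Plag1 (ENSMUSG00000003282, chr4:3828143-3865570, minus strand) measured 8.46 and 9.46, then 4.88 and 5.04, then 0.453 and 0.866 CPM. In both genes the 2 premalignant values were below the 2 wild type values, as in 46.2% of the 8851 genes, and both had 24 reads in malignant replicate 1.

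In premalignant cells 6 of the 8 genes were below 6 CPM in both libraries, among them Zfp677, Cand2, Plag1 and the remaining 3. 9030625A04Rik (ENSMUSG00000044350, chr14:77424003-77436711, minus strand) measured 8.97 and 5.50 CPM in wild type, 4.43 and 4.14 in premalignant, and 0.208 and 0.999 in malignant cells. For Zfp286 (ENSMUSG00000047342, chr11:62566879-62602964, minus strand) the values were 5.27 and 6.01, then 4.51 and 5.15, then 0.302 and 0.899 CPM. Dsel (ENSMUSG00000038702, chr1:113755279-113761486, minus strand) measured 6.62 and 5.11, then 4.60 and 4.43, then 0.906 and 0.899 CPM. Dsel was the only gene of the 8 whose level in malignant replicate 1 was not the lower one, at 48 and 27 reads, and it kept 20.1% and 19.9% of its premalignant level.

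**Figure D1:**
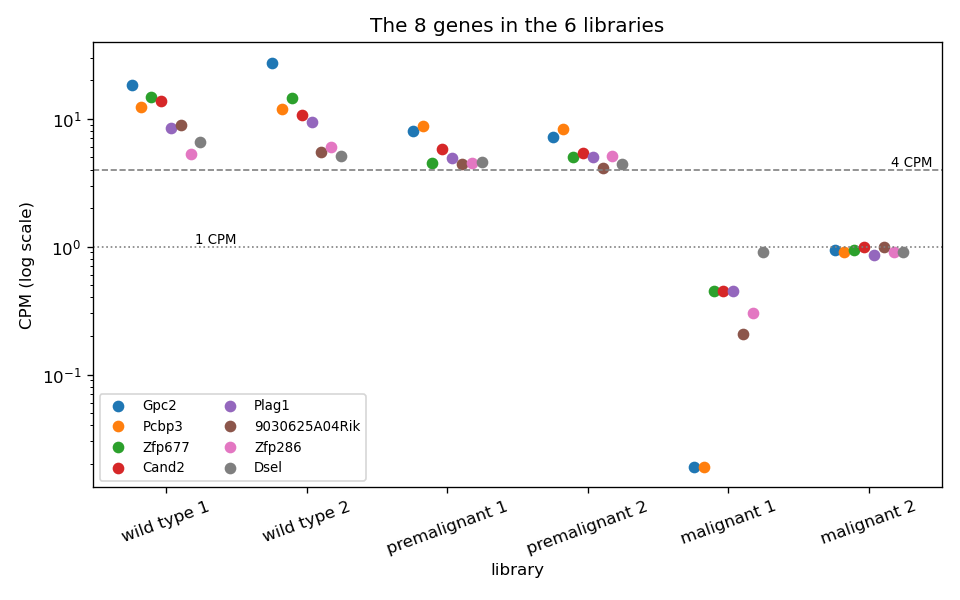
CPM (log axis) of the 8 genes in the 6 libraries, 1 point per gene and library, with the floor of 4 CPM and the ceiling of 1 CPM as lines. In malignant replicate 2 all 8 points lie between 0.866 and 0.999 CPM, whereas in malignant replicate 1 they spread from 0.0189 to 0.906 CPM.

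Levels were compared between genes per kilobase of exon. Zfp677 was highest in wild type at 5.01 RPKM, the CPM per kilobase of exon, followed by Pcbp3 at 4.13 RPKM and Gpc2 at 2.76 RPKM. The lowest were Plag1 at 1.06 RPKM and Dsel at 1.02 RPKM. In premalignant cells Pcbp3 led at 2.92 RPKM, and Plag1 was lowest at 0.584 RPKM. The median of the 8 over the 4 earlier libraries was 1.71 RPKM, against 13.5 RPKM for the 8851 genes. The rule leads to low levels, since a ceiling of 1 CPM in both malignant libraries can be met most readily by genes that start near the floor, so this difference is no finding about the 8.

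The position of the genes against the ceiling differed between the malignant libraries. In malignant replicate 2 the 8 genes had 26 to 30 reads each, and the exact Poisson 95% interval of the level held 1 CPM for 8 of 8. In malignant replicate 1 it held 1 CPM for 1 gene, Dsel. Replicate 1 was below replicate 2 for 7 of the 8 genes, and for 5 of them (Gpc2, Pcbp3, Cand2, 9030625A04Rik and Zfp286) the intervals did not meet. These intervals cover counting error only.

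At the floor, the interval of the lowest wild type or premalignant value held 4 CPM for 4 of the 8 genes, among them 9030625A04Rik with 143 reads in premalignant replicate 2. Just outside the ceiling were Rundc3b at 0.0755 and 1.07 CPM in the malignant libraries, Tdrkh at 0 and 1.13, Lrrn3 at 0.453 and 1.20, and, on the other side, Pik3r3 at 1.13 and 0.832 and Capsl at 1.17 and 0.899. Just outside the floor were Abcg3, with a lowest value of 3.94 CPM, Ggh with 3.93 and Meis1 with 3.76. The borders of the list therefore ran through genes that differed by a few reads.

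The 2 malignant libraries differed in how many genes fell to such levels, although not in every gene, since Dsel was alike in both. Of the 8851 genes, 130 were below 1 CPM in malignant replicate 1 and 11 in replicate 2, with the 8 in both. Below 0.5 CPM there were 98 in replicate 1 and 0 in replicate 2, whose lowest gene had 25 reads. Measured against the premalignant mean, 141 genes kept less than 10% in replicate 1 and 1 gene, Reln, did so in replicate 2. Reln did not fall in replicate 1, where it stood at 2091 CPM, against 42.4 and 57.2 in premalignant cells. Below 50% there were 545 genes in replicate 1 and 384 in replicate 2, a smaller ratio than below 10%. The median gene kept 93.7% and 96.0%. Replicate 2 did reach a count of 0 for other genes that were at 4 CPM or more in wild type.

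**Figure D2:**
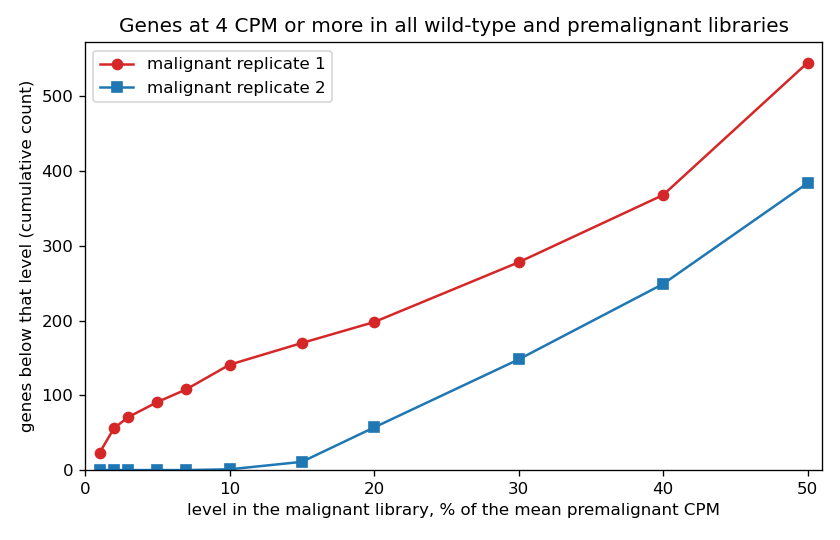
Number of genes (vertical axis) that kept less than a given percentage of their mean premalignant CPM (horizontal axis), among the 8851 genes at 4 CPM or more in the 4 earlier libraries, for each malignant library. At 20% the counts are 198 in replicate 1 and 57 in replicate 2, and at 10% they are 141 and 1.

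The 122 genes below 1 CPM in malignant replicate 1 alone are the nearest comparison set. Their median was 0.283 CPM in replicate 1 and 3.36 CPM in replicate 2, with a highest value of 55.8 CPM there. Only 3 genes were below 1 CPM in replicate 2 alone. Among the 122 were Vpreb1, a surrogate light chain gene, with 0.132 CPM in malignant replicate 1 and 3.76 CPM in replicate 2, and Dntt. Dntt, which adds nucleotides at rearranging junctions, had 0.0943 and 6.23 CPM. Low values in replicate 1 follow from how this set was chosen, and pre-B genes did not share 1 direction. Rag1 fell from 139 CPM in malignant replicate 1 to 52.7 CPM in replicate 2, and Rag2 from 23.1 to 8.03 CPM. The B-lineage precursor sum was also slightly higher in replicate 1, with 3270 against 3103 CPM. The summed monocyte and macrophage markers, of which 15 of 15 were found, were 31.1 and 113 CPM in the malignant libraries, against 85.0 and 97.3 in premalignant and 382 and 471 in wild type cells. A single gene, Ly6c2, at 6.15 and 57.5 CPM in the malignant libraries, carried much of the difference. Without it, in a sum made after seeing the data, the values were 24.96 and 55.3 CPM in malignant and 67.1 and 87.0 in premalignant cells, so that malignant replicate 2 was then below both premalignant libraries. Neutrophil markers stood at 95.4 and 153 CPM in the malignant libraries, against 402 and 405 in premalignant and 1427 and 3510 in wild type cells. Other lists went differently. Stroma and endothelium markers stood at 31.4 CPM in malignant replicate 2, against 10.6 and 10.05 in premalignant cells. Sparc alone gave 25.1 CPM of that malignant sum. T cell markers stood at 139 CPM in malignant replicate 2, against 67.3 and 59.3 in premalignant cells, with Cd2 at 121 CPM. Dendritic cell markers, at 104 CPM, lay between the premalignant values of 134 and 81.8. The part of other cell types in the values of malignant replicate 2 was not tested.

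The comparison of premalignant with wild type cells asks whether the genes had changed before lymphoma. The rule had set only a floor in these 4 libraries, and that floor bounds the direction. With 6 of the 8 below 6 CPM in both premalignant libraries, wild type values had little room to be lower. A call as higher was therefore hardly open to most of the 8. In edgeR's quasi-likelihood test on all 6 libraries, with a call at a Benjamini-Hochberg adjusted p of 0.1 or less and an absolute log2 fold change of 0.5 or more, 1 of the 8 genes was called lower and 0 higher. Over all 16683 genes tested, 39.3% were called, 20.3% as lower and 19% as higher; among the 8851 genes these shares were 43.3%, 16.6% and 26.7%. At 1 of 8, the share called lower was near that background.

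Zfp677 was the gene called, with a log2 fold change of -1.41 ± 0.37 (SE, n = 2 libraries per stage; edgeR adjusted p = 0.0323). It was called in 9 of 13 fits, with adjusted p from 0.000784 to 0.202, and the call was lost when any 1 of the 4 wild type and premalignant libraries was left out. Without wild type replicate 2 its log2 fold change was -1.42 (edgeR adjusted p = 0.145). Gpc2 had nearly the same change, -1.38, with a much larger standard error of 0.95 (edgeR adjusted p = 0.310). Cand2 was at -0.91 ± 0.40 (SE; edgeR adjusted p = 0.130) and Plag1 at -0.64 ± 0.36 (SE; edgeR adjusted p = 0.221). These 3 did not pass the test. 9030625A04Rik, at -0.55, Pcbp3, at -0.29, and Dsel, at -0.17, were further from the threshold, and Zfp286, at -0.01, had a fold change near 0.

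The fit of all 6 libraries shares 1 estimate of the spread, into which the 1 against 28 reads of Gpc2 in the malignant libraries enter. A fit of the 4 wild type and premalignant libraries alone called 4 of the 8 genes lower, where 26% of all 16313 genes tested and 19.1% of the 8851 genes were called lower. In it Gpc2 was at -1.32 (edgeR adjusted p = 0.00427), Zfp677 at -1.35 (edgeR adjusted p = 0.00165), Cand2 at -0.85 (edgeR adjusted p = 0.0146) and Plag1 at -0.59 (edgeR adjusted p = 0.0470). The standard error of Gpc2 was 0.22 in that fit. The other 4 genes were not called in any of the fits.

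**Figure D3:**
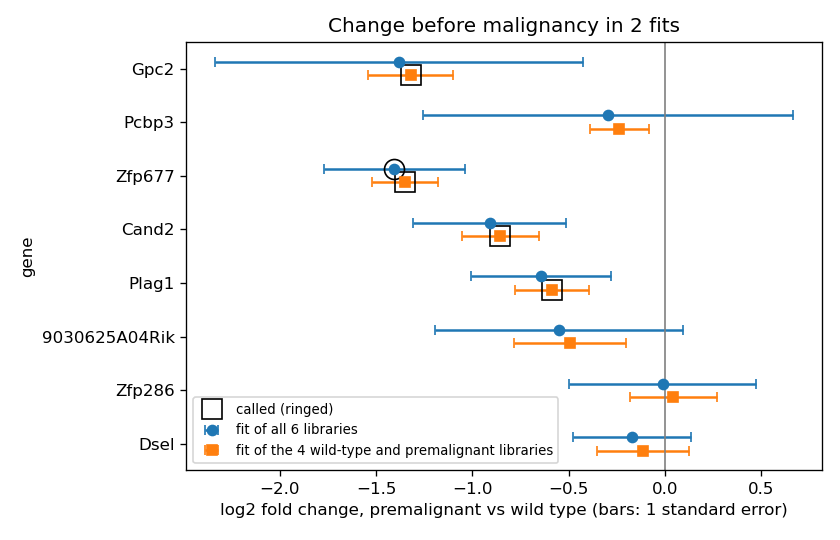
Log2 fold change between premalignant and wild type cells for each of the 8 genes, with bars of 1 standard error, in the fit of all 6 libraries (circles) and in the fit of the 4 wild type and premalignant libraries (squares); outlined symbols passed the threshold. Zfp677 is outlined in both fits, and Gpc2, Cand2 and Plag1 only in the second.

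The direction of these changes was uneven across scalings for the small ones. In CPM by total count, both premalignant libraries were below both wild type libraries for 8 of 8 genes, against 46.2% of the 8851 genes. After scaling by trimmed mean of M values (TMM) the count was 6 of 8, against 34.4%, and Dsel and Zfp286 then overlapped. Total-count scaling moved all premalignant values by -0.21 log2 against TMM. The median log2 fold change of the 8 was -0.60 in the TMM-scaled fit, against 0.11 for the 8851 genes and -0.08 for all genes tested. The floor bounds the direction here too. The 8 lay near it in premalignant cells and most of the 8851 genes did not, so these contrasts are no finding about the 8. For comparison, 25 of the 122 genes below 1 CPM in malignant replicate 1 alone were called lower between wild type and premalignant cells and 0 higher. Among all genes tested 20.3% were called lower, and among the 8851 genes 16.6%. The share of the 122 cannot be read against these. The 122 were chosen for malignant libraries on different sides of 1 CPM. That difference enters the spread of the fit and can hold down calls between the earlier stages. The median log2 fold change of the 122 was -1.004, and the same floor applied to them.

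The genes lay on 8 chromosomes, so no pair of them was adjacent. Genomic span did not set them apart, with a median of 22937 bp against 23425 bp for the 8851 genes, and their median exon length was 4772.5 bp against 3849 bp. Names of the Zfp type were carried by 2 of the 8 (25%) and by 3.38% of the 8851 genes. These sets are not alike in level. In premalignant cells all 8 were below 9 CPM, as were 7.15% of the 8851, so the 2 shares are no finding about the 8. The exons or introns of Gpc2, 9030625A04Rik and Zfp286 overlapped other annotated genes, which matters because the library kit does not keep strand. The same-strand partner of Gpc2, Gal3st4, overlaps it by 7889 bp and had at most 0.128 CPM. How reads lying on both genes were counted was not checked, so this value does not settle the level of Gal3st4. The opposite-strand lincRNA 6330418K02Rik, which overlaps Gpc2 by 1710 bp, measured 2.10 and 1.95 CPM in wild type, 0.842 and 1.04 in premalignant, and 0.415 and 0.799 in malignant cells. Its last value was close to the 0.932 CPM of Gpc2 in the same library, whereas in malignant replicate 1 Gpc2 was far below it, at 0.0189 CPM. Reads of the 2 genes within the overlap cannot be told apart. The overlap of 9030625A04Rik with Ccdc122 was 133 bp.

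The nearest tested gene on each side of the 8 gave 16 neighbours, 10 of them within 100 kb. Their malignant values were not used by the rule and were compared in the same 6-library fit. Between malignant and premalignant cells 1 neighbour fell and 1 rose, where 6.18% of all genes were called, 2.45% as lower and 3.73% as higher. Their median log2 change of 0.04 equalled that of all genes tested. Against wild type 5 of 16 were lower and 7 were higher, where 24.3% and 24.9% of all genes were called so, 49.2% in all.

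Gpc2, 9030625A04Rik and Plag1 each had a neighbour that starts 465 bp away or less and runs in the opposite direction. Stag3, a cohesin subunit of meiotic cells, starts 235 bp from Gpc2 and fell with it, from 14.3 and 13.3 CPM in premalignant to 1.25 and 1.86 CPM in malignant cells. In wild type cells it measured 15.4 and 20.8 CPM. Its log2 fold change was -3.08 between malignant and premalignant cells (edgeR adjusted p = 0.0156), called in 11 of 13 fits and lost without either premalignant library, where adjusted p reached 0.224. Unlike Gpc2, Stag3 had values of the same order in both malignant libraries.

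Ccdc122, a coiled-coil gene 132 bp from 9030625A04Rik, was low throughout, at 1.21 and 1.31 CPM in wild type, 0.318 and 0.347 in premalignant, and 0.0943 and 0.0666 in malignant cells. It fell between wild type and malignant cells by 3.59 on the log2 scale (edgeR adjusted p = 0.00268), and was at -1.88 between premalignant and malignant cells (edgeR adjusted p = 0.115). Chchd7, which encodes a mitochondrial protein and starts 465 bp from Plag1, measured 21.7 and 19.7 CPM in premalignant and 20.0 and 19.1 in malignant cells. The log2 fold change between them was 0.01 (edgeR adjusted p = 0.990). The 3 close pairs thus had 1 partner called lower at the malignant step, 1 called lower against wild type alone, and 1 called in neither comparison.

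**Figure D4:**
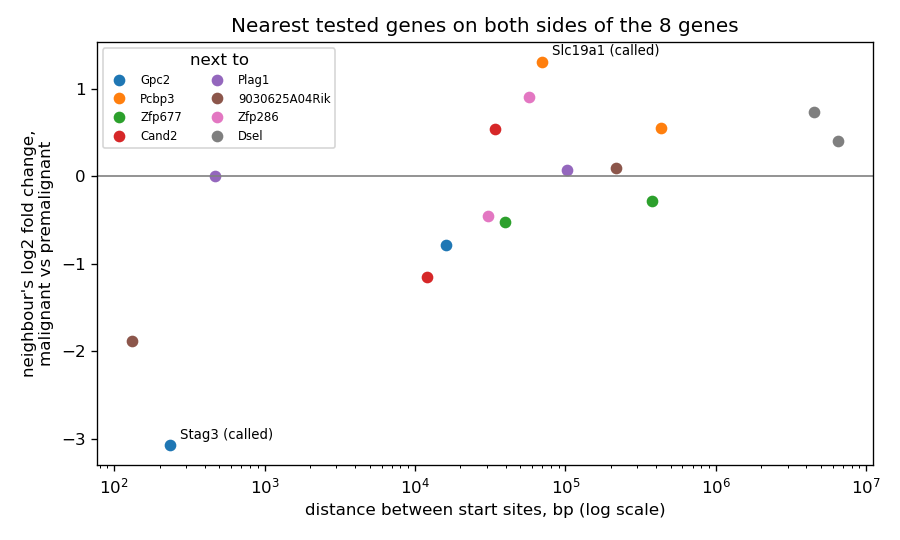
Log2 fold change between malignant and premalignant cells of the 16 neighbouring genes (vertical axis) against the distance between their start site and that of the nearby gene in bp (log axis), coloured by that gene. Stag3, 235 bp from Gpc2, is at -3.08, and Slc19a1, near Pcbp3, is the 1 neighbour called higher, at 1.31.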

How the data were processed

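The authors sequenced polyadenylated RNA with an unstranded kit as 50 bp single-end reads, aligned them with TopHat 2.0.8b to mm9 and counted reads per gene with HTSeq. They deposited these whole-number counts, not normalized, for 6 libraries (3 stages, 2 biological replicates each), with totals from 30031100 to 53453055. Tables of the authors' own DESeq comparisons, with fold changes and p-values, were not used. Genes, types and NCBIM37 (mm9) coordinates came from GENCODE vM1, with promoters from RefSeq on GRCm38.p6.

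The members and gene lists were chosen with earlier results of these data known. CPM was computed from total counts, intervals were exact Poisson at 95%, and neither covers variation between animals. Stages were compared with edgeR 4.0.16 in R 4.3.3 (TMM scaling, filterByExpr, quasi-likelihood test, Benjamini-Hochberg adjustment) on all 6 libraries, with calls at an adjusted p of 0.1 or less and an absolute log2 fold change of 0.5 or more, after a test on simulated data. SE was the absolute log2 fold change divided by the square root of F. Every member and its nearest tested neighbours were named, and other genes only as threshold or reference cases. With 2 libraries per stage an exact two-sided permutation test cannot go below p = 0.333. Alternatives were DESeq2 1.42.0, other scaling, filters and thresholds, fewer libraries, and a replicate block. The replicate numbers were taken as shared numbers only. The Poisson intervals against the thresholds and the levels relative to the premalignant mean were added after seeing the data.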

Additional observations from a re-analysis of the deposited data

How the results depend on the processing

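The list itself depended on its limits. With TMM-scaled CPM, the scaling of the tests, it held 4 genes: 3 of the 8 (Pcbp3, Plag1 and Zfp286) and Abcg3. It held 0 with a ceiling of 0.5 CPM, 51 with a ceiling of 2 CPM, 60 with a floor of 2 CPM, 1 with a floor of 8 CPM, and 21 over all gene types and chromosomes. Leaving out 1 library gave 8 to 130 genes: 13 without premalignant replicate 1 or 2, and 130 without malignant replicate 2. Members called between premalignant and wild type numbered 1 in the 6-library fit, 2 with DESeq2, 2 without a filter on low counts, 2 (of 6 tested) with at least 10 counts in every library, 4 in the fit of those stages only, and 0 to 4 when 1 library was left out. All genes called numbered 6563, and 2094 to 8455 when 1 library was left out, the lowest without premalignant replicate 2 (2503 without premalignant replicate 1 and 3285 without wild type replicate 2). Neighbours called lower between malignant and premalignant numbered 2 without the filter, and 0 to 2 when 1 library was left out. The log2 fold change of Zfp286 reversed to 0.0437 in the fit of those stages only and ranged from -0.12 to 0.10 when 1 library was left out, and that of Dsel ranged from -0.35 to 0.0433 (without wild type replicate 1). The cause was not tested. With the replicate number as a block, 6575 genes and 1 member (Zfp677, edgeR adjusted p = 0.0371) were called; same-numbered wild type and premalignant libraries deviated together (r = 0.509 across 16683 genes, which are not independent, over 2 pairs).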
